A study of Homo sapiens with 25 samples.

Results

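The genes described here are 37 cytosolic and mitochondrial chaperones, cochaperones and heat shock genes, read by name from a table of 59427 gene names. Their names were given as a list whose rule used no measured value, although earlier results of these data were known. They were divided by textbook knowledge into 16 inducible members, known as targets of the heat shock factor HSF1, and 21 constitutive members. RNA was sequenced from 2 established human lung cancer lines, A549 (an adenocarcinoma line) and NCI-H460 (a large cell carcinoma line), 24 h after cells had been transfected, at 25 nM, with antisense oligonucleotides (ASOs). An ASO is a short modified strand that pairs with an RNA and can lead to its cleavage. The treated groups of each line received ASO3 or ASO5 against the long noncoding RNA candidate 42 (CHiLL1), or ASO1 or ASO3 against candidate 240 (CHiLL2). The control group of each line received a commercial neutral ASO (Qiagen Control A), so every group, the control included, was transfected with an oligonucleotide. There were 3 libraries per group in A549 (replicates 3, 4 and 5) and 2 per group in NCI-H460 (replicates 1 and 2), and the labels do not say whether these came from separate cultures, so p-values measure the spread between these libraries only. No untransfected and no heat-treated cells were among the libraries.

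Chaperones bind proteins that are not folded and keep them from clumping. HSP70 proteins work in cycles of ATP hydrolysis that J-proteins start and that HSP110 and BAG proteins end by releasing the nucleotide, and they hand some clients to HSP90 or to the barrel-shaped chaperonins. When unfolded protein builds up, HSF1 binds heat shock elements, which are repeats of the unit GAA and its complement TTC, and raises transcription of the inducible members. Tumour lines often carry a high basal level of these genes.

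The promoters were read for the heat shock element units. RefSeq promoter windows (GRCh38.p14, 250 bases before a gene's start) were found for 33 of the 37 members, as 47 windows, 23 of inducible and 24 of constitutive members. A pair of facing units (GAANNTTC or TTCNNGAA, read on both strands) was present in 10 of the 23 inducible windows (43.5%) and 6 of the 24 constitutive windows (25%), against 11.6% of all 35116 windows. A run of 3 units (GAANNTTCNNGAA or TTCNNGAANNTTC, each of which also contains the pair) was present in 4 of the 23 inducible windows (17.4%) and 3 of the 24 constitutive windows (12.5%), against 0.441% of all windows. Both classes held both kinds of match, and the difference between the classes was not tested. The runs of 3 units in constitutive windows belonged to HSPA8, DNAJB6 and HSP90AB1, while the inducible members HSPH1, BAG3, STIP1, AHSA1 and HSPE1 had no pair in any window. A match describes the letters only and is not a measured binding site. Some windows of inducible members that recur below are shown, 4 with a pair and that of HSPH1 without one, upstream of annotated exons, 5′ to 3′ on the gene's strand, with the paired units in capitals. They belong to HSPA1A (chr6:31815293-31815463, plus strand), HSPA1B (chr6:31827488-31827734, plus strand), DNAJB1 (chr19:14518421-14518647, minus strand), HSPB1 (chr7:76302423-76302543, plus strand) and HSPH1 (chr13:31162389-31162638, minus strand).
HSPA1A: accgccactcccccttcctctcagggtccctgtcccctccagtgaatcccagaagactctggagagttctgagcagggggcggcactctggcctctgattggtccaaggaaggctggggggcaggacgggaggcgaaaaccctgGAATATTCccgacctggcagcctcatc
HSPA1B: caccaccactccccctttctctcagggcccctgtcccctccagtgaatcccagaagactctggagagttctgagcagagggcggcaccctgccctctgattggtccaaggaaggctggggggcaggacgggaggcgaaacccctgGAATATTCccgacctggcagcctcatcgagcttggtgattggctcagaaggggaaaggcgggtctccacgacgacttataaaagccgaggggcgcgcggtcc
DNAJB1: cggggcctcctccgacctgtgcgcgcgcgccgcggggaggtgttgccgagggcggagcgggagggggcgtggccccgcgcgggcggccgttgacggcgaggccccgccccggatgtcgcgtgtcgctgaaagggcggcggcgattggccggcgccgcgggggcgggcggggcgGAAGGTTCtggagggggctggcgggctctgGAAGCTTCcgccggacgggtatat
HSPB1: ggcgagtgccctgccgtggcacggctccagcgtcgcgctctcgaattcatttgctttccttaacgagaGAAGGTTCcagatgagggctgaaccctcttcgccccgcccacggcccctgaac
HSPH1: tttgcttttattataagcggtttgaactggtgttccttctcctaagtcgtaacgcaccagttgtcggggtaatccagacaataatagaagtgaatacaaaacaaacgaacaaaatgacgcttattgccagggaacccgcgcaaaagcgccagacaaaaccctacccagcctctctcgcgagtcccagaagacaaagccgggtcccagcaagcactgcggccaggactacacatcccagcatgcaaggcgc
The HSPA1A and HSPA1B windows carry the same pair of units in nearly the same place, with the first base at position -106 and -105 from the start. DNAJB1 carries 2 pairs, at -77 and -47, in this window and none in its other RefSeq windows, and HSPB1 carries its pair farther out, at -182.

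HSPA1A and HSPA1B, neighbours on hg38 chromosome 6 (31815464 to 31817946 and 31827735 to 31830255), encode the main stress-inducible HSP70. Their reading frames of 1926 bases are identical at 1922 positions (99.79%), and 95.57% of the 31-base words of HSPA1A occur in HSPA1B. Reads from them can be split between them only in part, so their separate levels are uncertain and their pattern is best read together. Many other members (among them HSPA8, HSPD1, HSPE1, HSP90AB1 and the CCT genes) have processed pseudogenes that can share reads in the same way. The library kit is named without a strand setting, so reads of a gene and of an antisense partner cannot be told apart.

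Values are TPM (transcripts per 1e6) as rescaled by the authors, so column sums lay between 924350 and 1179224, and the sequencing depth behind a value is unknown. The log2 fold changes of the authors' deposited tables equalled the ratio of group means in the TPM table for candidate 240 ASO1 in both lines (median offset 0 over genes above 5 TPM in both groups), so the control columns fit the scaling of that comparison. For the other ASOs the authors' deposited fold changes were offset by a median of 0.0013 to 0.0157 in A549, and in NCI-H460 by 0.0694 for candidate 42 ASO3, -0.0207 for ASO5 and 0.014 for candidate 240 ASO3, and fold changes computed here lack that offset. All 37 members passed the filter of a mean of at least 1 TPM in both lines, alongside 14740 genes in A549 and 13774 in NCI-H460. Together the members held 0.905% to 1.3% of the signal in A549 libraries and 0.853% to 1.08% in NCI-H460 libraries. The epithelial keratins KRT8 and KRT18 were high in both lines, while EPCAM and CDH1 were under 1 TPM in NCI-H460. Of the lung markers, NKX2-1 and SFTPB were under 0.2 TPM in every library, SFTPC reached 1.16 TPM, and NAPSA lay at 1.38 to 4.23 TPM in A549. Of the leukocyte markers, CD3E was at 0 in every library and PTPRC reached 0.0158 TPM, while CD68, a lysosomal protein, lay at 19.6 to 77.4 TPM in A549 and 19.1 to 44 TPM in NCI-H460. The RNA taken as candidate 42 (AC107959.3) stood at 8.55% and 45% of control with ASO3 and ASO5 in A549, and at 30.3% and 95.5% in NCI-H460. The RNA taken as candidate 240 (AC015712.6) was under 1 TPM throughout, at 53.4% and 4.44% of control with ASO1 and ASO3 in A549, and at 111% and 59.6% in NCI-H460.

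One library has to be described before any result. A549 control replicate 5 was the lowest of all 15 A549 libraries for 22 of the 37 members, and for 13 of the 16 inducible ones, whereas it was the lowest for 6.28% of the 14740 genes tested. HSPA1A stood at 87.7 TPM in it, against 308 to 541 TPM in the other 14 A549 libraries. HSPA8, the constitutive HSP70, stood at 416 TPM, against 907 to 1191 TPM in the other 14. The median inducible member was at 73.5% of the mean of the other control libraries, the median constitutive member at 88.8%, and the median of all genes at 102%. It lay above the mean of the other controls for 5 of the 37 members, HSF2, HSPA9, DNAJC7, CHORDC1 and DNAJB6, and at or below it for the rest, so it moves most but not all A549 fold changes of the members upward. The A549 counts, and the fold changes and calls that turn on this library, are given with and without it. Why this library was low was not tested. Another A549 library, candidate 240 ASO3 replicate 3, was the lowest for 22.7% of all genes and for 3 of the 37 members. It was the highest for 9 members, and its column sum was the largest (1179224). The count of members called with candidate 240 ASO3 in A549 changed without it.

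**Figure D1:**
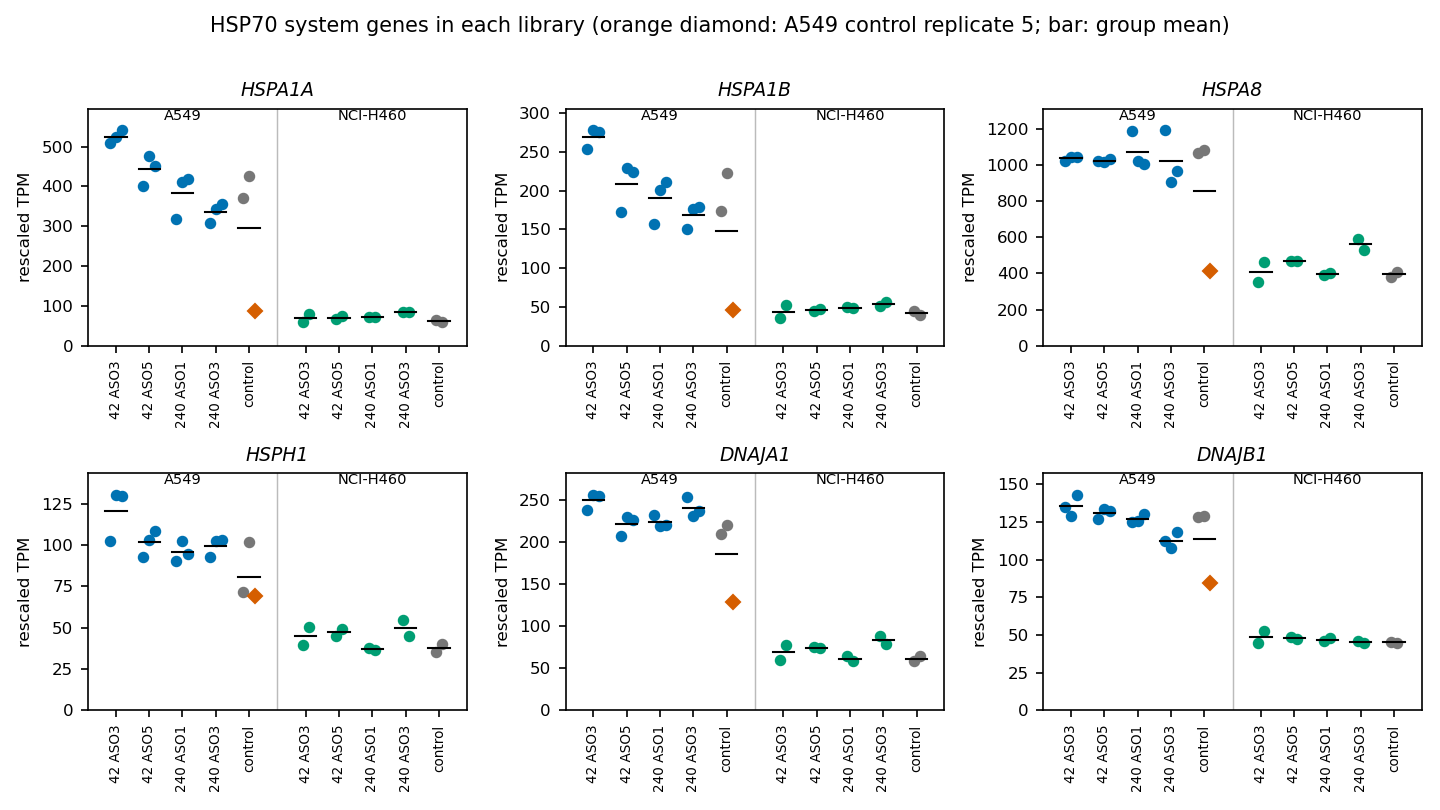
Rescaled TPM (y axis, linear from 0) of 6 HSP70 system genes in every library of the 4 ASO groups and the control of A549 (left) and NCI-H460 (right). Points are libraries, bars are group means, and the orange diamond is A549 control replicate 5, which lies below all other A549 libraries for each of the 6 genes.

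In A549, candidate 42 ASO3 raised 6 of 37 members and lowered none (limma, adjusted p under 0.05), which is 16.2% of the members, while 10.1% of all genes tested were called and 3.43% were called higher. The 6 were HSPH1, HSP90AA1 and FKBP4 of the inducible class and HSPA14, DNAJB6 and TCP1 of the constitutive class. The median log2 fold change was 0.26 over the members and 0.02 over all genes tested, and 35 of 37 members had a positive one. Without control replicate 5, TCP1 alone passed the test, no inducible member did, and the median was 0.19. Then 31 of 37 values were positive, against 7848 of all 14742 genes tested, and 7.10% of all genes were called. The call count was also 1 without candidate 42 ASO3 replicate 5, 2 without its replicate 4 and 3 without control replicate 3, and no member passed when the 2 compared groups were fitted alone. When each of the 6 libraries was left out in turn, the call of DNAJB6 was lost in all 6 cases, those of HSPH1, HSP90AA1 and HSPA14 in 4 each and that of FKBP4 in 3, and TCP1 passed in all. With the replicate number as a block, more members and more of all genes passed, as given in the last section.

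Candidate 42 ASO5 called no member in A549 (limma, 3.82% of all genes tested), with 7 of 37 at an unadjusted p under 0.05. The share of all genes at an unadjusted p under 0.05 is not given here or below. Counts of members at that threshold are therefore not read as a result about the members. The median of the members was 0.17, and 0.07 without control replicate 5. Candidate 240 ASO1 called no member and no gene at all in A549 (0%), with 1 member at an unadjusted p under 0.05 and a median of 0.11, or 0.02 without that library. Candidate 240 ASO3 called no member either, where 13.8% of all genes were called, with 4 members at an unadjusted p under 0.05 and a median of 0.10, or 0.02 without that library. For this ASO the replicate numbers pair the libraries, and with the replicate number as a block HSPH1 (log2 fold change 0.32) and DNAJB4 (0.47) passed, among 25.1% of all genes. Without control replicate 5, candidate 42 ASO5, candidate 240 ASO1 and candidate 240 ASO3 again called no member, where 2.07%, 0% and 10.4% of all genes were called. The 4 ASOs were compared with the same control libraries, so their fold changes are not independent of each other.

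**Figure D2:**
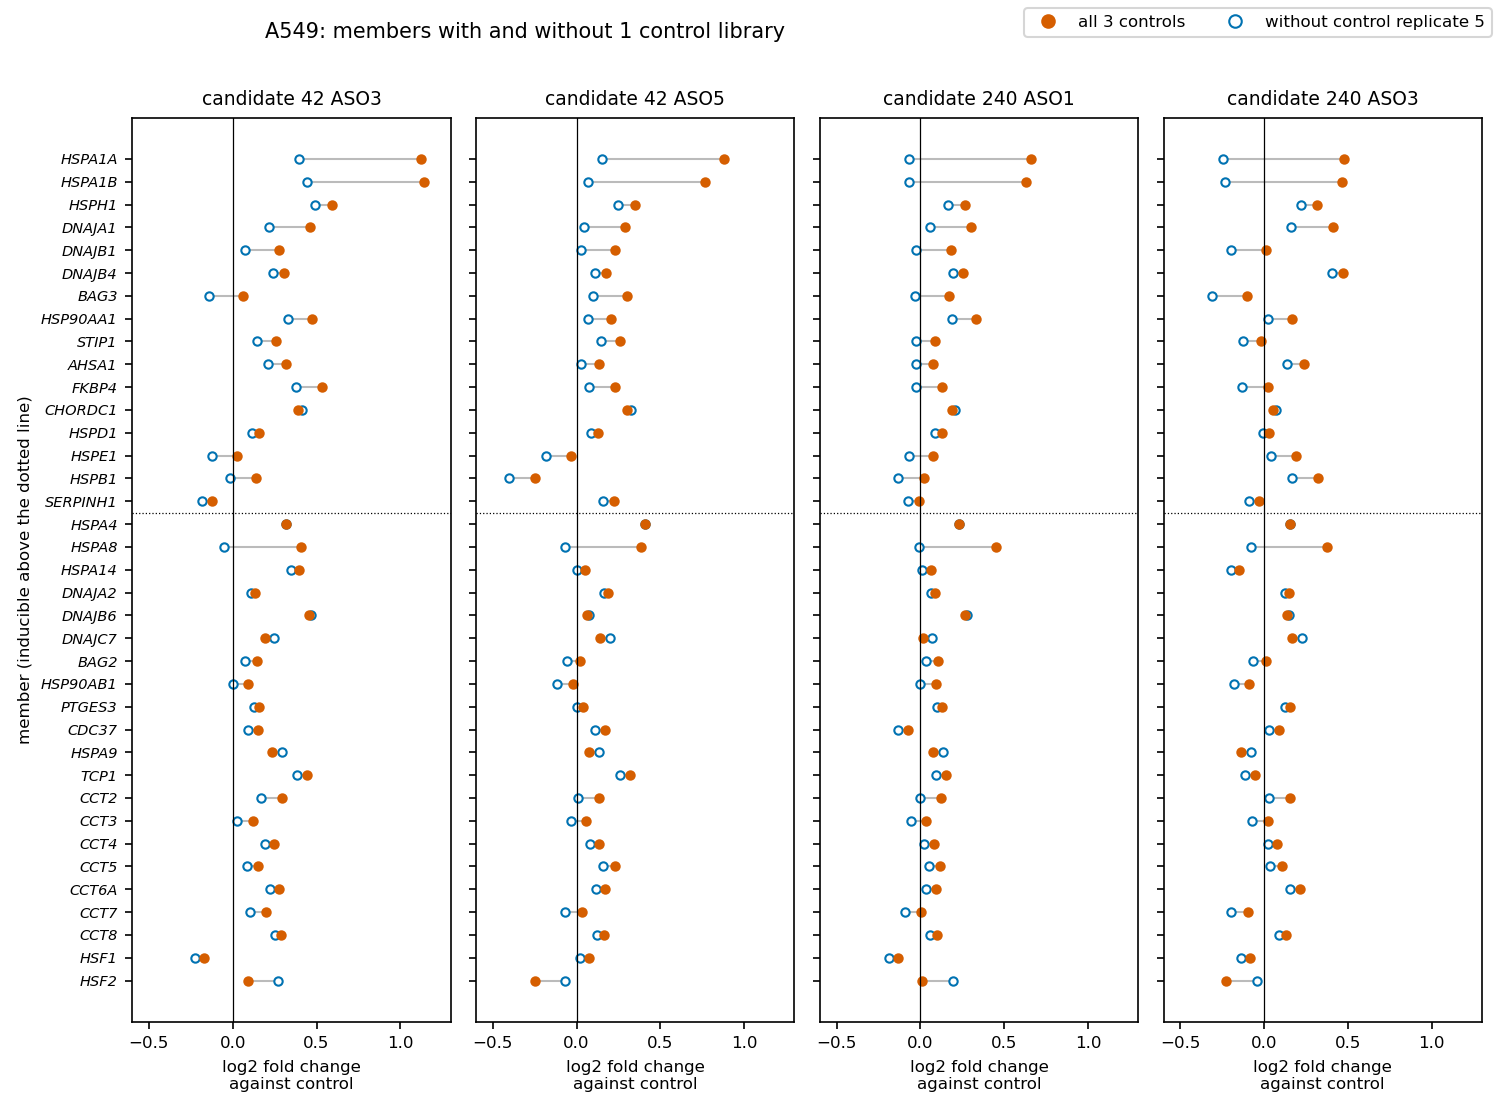
Log2 fold change against control (x axis) of each of the 37 members (y axis, 16 inducible above the dotted line) for the 4 ASOs in A549, with all 3 control libraries (filled) and without control replicate 5 (open). HSPA1A, HSPA1B and HSPA8 shift most, and the median of the members falls to 0.19, 0.07, 0.02 and 0.02 without that library.

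In NCI-H460, candidate 42 ASO3 changed 13 of 37 members (limma, adjusted p under 0.05), or 35.1%, while 46% of all genes tested were called. Of these, 9 rose, 24.3% of the members against 13.2% of all genes, and 4 fell, 10.8% of the members against 32.8% of all genes. The rises were led by the small heat shock protein HSPB1 and by the HSP90 cochaperones AHSA1 and CDC37, and the falls by mitochondrial HSPA9, BAG2 and HSPD1. Both classes held both directions: 4 inducible members rose and 1 fell, and 5 constitutive members rose and 3 fell. The median log2 fold change was 0.11 over the members and -0.20 over all genes. Scaling the libraries by the median of ratios moved the median of all genes to -0.02 and that of the members to 0.30, and it called 22 members, 20 higher and 2 lower (HSPA9 and BAG2). Under it the higher share of all calls was 48.2%, in place of 28.7%. The share of all genes called under this scaling is not given here, so its 22 calls are not read as a result about the members. Fewer members were called without control replicate 1 or 2, each of which leaves a single control library.

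Candidate 42 ASO5 called no member in NCI-H460 (limma, 0.508% of all genes tested). Of the 37 members 11 had an unadjusted p under 0.05, and 33 values were positive. The shares of all genes for these counts are not given here, so they are not read as a result about the members. The median log2 fold change was 0.20 over the members and 0.0086 over all genes tested. In 30 members both ASO5 libraries lay above both controls, where 29.1% of all genes did. Candidate 240 ASO1 called no member and no gene (0%), with no member at an unadjusted p under 0.05 and a median of 0.01. Candidate 240 ASO3 raised 2 of 37 members, HSPB1 and AHSA1, or 5.41%, where 5.66% of all genes were called and 2.65% were called higher. Both calls were lost without candidate 240 ASO3 replicate 2 and without either control library.

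**Figure D3:**
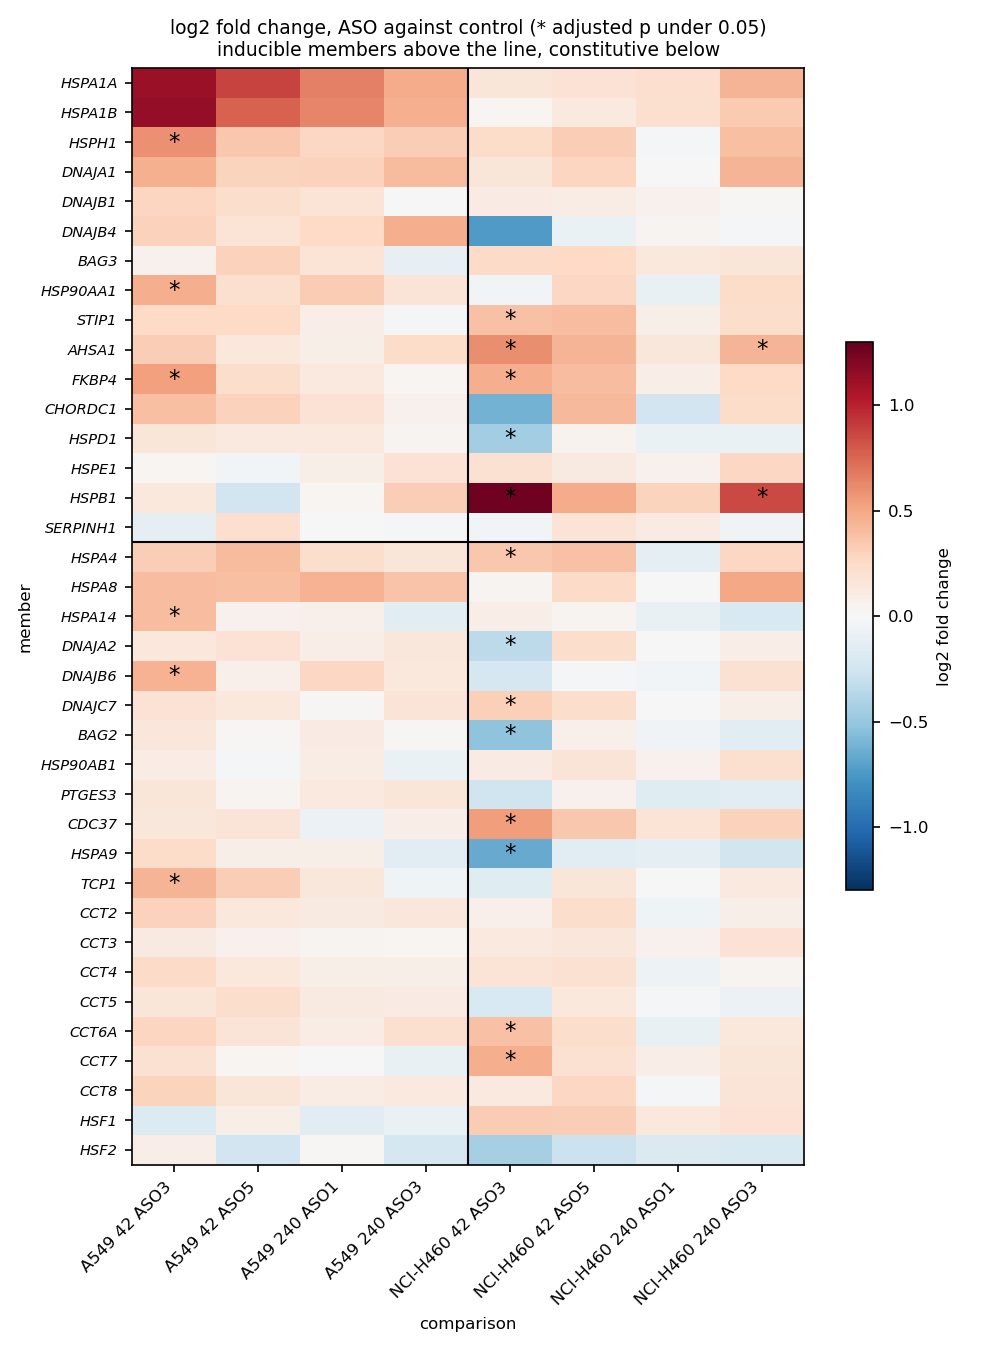
Log2 fold change against control (colour) of the 37 members (rows, 16 inducible above the line) for the 4 ASOs in A549 (left) and NCI-H460 (right), where an asterisk marks a limma adjusted p under 0.05. The A549 column of candidate 42 ASO3 holds 6 rises, and the NCI-H460 column of the same ASO holds 9 rises and 4 falls.

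HSPA1A and HSPA1B had the largest fold changes of the members in A549 when all 3 controls were used, and none of them passed the test; without control replicate 5, HSPH1 (0.49) and DNAJB6 (0.47) were above both with candidate 42 ASO3. HSPA1A stood at 509, 524 and 541 TPM with candidate 42 ASO3, at 402, 477 and 452 TPM with ASO5, at 318, 412 and 419 TPM with candidate 240 ASO1 and at 308, 343 and 357 TPM with candidate 240 ASO3, against 372, 426 and 87.7 TPM in controls. Only the candidate 42 ASO3 libraries all lay above the controls (log2 fold change 1.12 ± 0.41 SE, limma adjusted p = 0.107), and without control replicate 5 the log2 fold change was 0.40 (adjusted p = 0.10). HSPA1B followed it, with 253, 278 and 275 TPM for candidate 42 ASO3, 172, 229 and 224 TPM for ASO5, 157, 201 and 212 TPM for candidate 240 ASO1 and 150.1, 176 and 178 TPM for candidate 240 ASO3, against 174, 223 and 45.8 TPM in controls. The largest of its values was again that of candidate 42 ASO3 (log2 fold change 1.14 ± 0.40 SE, limma adjusted p = 0.0951), and without control replicate 5 it was 0.44 (adjusted p = 0.133). For candidate 240 ASO1 and ASO3 the direction of both genes turned without control replicate 5, with HSPA1A at -0.065 and -0.25 in place of 0.66 and 0.48.

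In NCI-H460 the levels of this pair were lower than in A549, and no difference from control passed the test. HSPA1A stood at 59.5 and 80.2 TPM with candidate 42 ASO3, 67.8 and 73.6 TPM with ASO5, 72 and 72.2 TPM with candidate 240 ASO1 and 84.3 and 83.7 TPM with candidate 240 ASO3, against 64.7 and 58.9 TPM in controls. The libraries of the last 3 ASOs lay above both controls, and the largest difference, that of candidate 240 ASO3, did not pass the test (log2 fold change 0.44 ± 0.13 SE, limma adjusted p = 0.0864). HSPA1B held 35.6 and 52.5 TPM with candidate 42 ASO3, 45.4 and 47.2 TPM with ASO5, 49.9 and 48.1 TPM with candidate 240 ASO1 and 51.6 and 56.6 TPM with candidate 240 ASO3, against 44.9 and 40.2 TPM in controls. The ratio of HSPA1A to HSPA1B lay between 1.89 and 2.34 in A549 libraries and between 1.44 and 1.67 in NCI-H460 libraries.

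HSPH1, an HSP110 protein that releases nucleotide from HSP70, had the largest fold change among the members called in A549. It stood at 103, 131 and 129.7 TPM with candidate 42 ASO3, 93.1, 103 and 109 TPM with ASO5, 90.5, 103 and 95 TPM with candidate 240 ASO1 and 92.8, 103 and 103 TPM with candidate 240 ASO3, against 71.6, 102 and 69.4 TPM in controls. All candidate 42 ASO3 libraries lay above the controls, and the replicate 3 library was the lowest of each ASO group. HSPH1 rose with candidate 42 ASO3 (log2 fold change 0.59 ± 0.14 SE, limma adjusted p = 0.017), and without control replicate 5 the log2 fold change was 0.49 (adjusted p = 0.075). In NCI-H460 it held 39.4 and 50.2 TPM with candidate 42 ASO3, 44.7 and 49.5 TPM with ASO5, 37.6 and 36.3 TPM with candidate 240 ASO1 and 54.7 and 45 TPM with candidate 240 ASO3, against 35.4 and 39.9 TPM in controls, and no difference passed.

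HSPA8, the abundant constitutive HSP70 of the cytosol, held 1023, 1043 and 1044 TPM with candidate 42 ASO3, 1021, 1017 and 1031 TPM with ASO5, 1186, 1023 and 1005 TPM with candidate 240 ASO1 and 1191, 907 and 967 TPM with candidate 240 ASO3 in A549, against 1063, 1083 and 416 TPM in controls. Apart from control replicate 5, all A549 libraries lay between 907 and 1191 TPM. The 4 fold changes, 0.38 to 0.45 with all controls, were -0.081 to -0.0063 without it, so their sign rests on that library. In NCI-H460, HSPA8 held 354 and 462 TPM with candidate 42 ASO3, 471 and 468 TPM with ASO5, 392 and 404 TPM with candidate 240 ASO1 and 592 and 528 TPM with candidate 240 ASO3, against 382 and 409 TPM in controls. Its largest difference, with candidate 240 ASO3, came close to the threshold (log2 fold change 0.50 ± 0.13 SE, limma adjusted p = 0.0562). The other HSP70 family members that were called were HSPA14, a ribosome-linked HSP70, which rose with candidate 42 ASO3 in A549 (48.8 ± 3.53 against 36.9 ± 2.42 TPM, SD, n = 3 each; limma adjusted p = 0.0783 without control replicate 5), and HSPA4, an HSP110 protein, which rose with candidate 42 ASO3 in NCI-H460 (161 ± 5.13 against 125 ± 4.09 TPM, SD, n = 2 each; limma adjusted p = 0.0916 and 0.0578 without control replicate 1 or 2).

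Among the 6 J-proteins, which deliver clients to HSP70 and start its ATP hydrolysis, DNAJB6 alone rose with candidate 42 ASO3 in A549, to 122 ± 4.16 TPM against 89.3 ± 9.48 TPM in controls (SD, n = 3 each; log2 fold change 0.46 ± 0.13 SE, limma adjusted p = 0.0439). Without control replicate 5 its log2 fold change was 0.47 (adjusted p = 0.0902), and the call was lost without any 1 of the 6 libraries. In NCI-H460 DNAJC7 rose and DNAJA2 fell with the same ASO (log2 fold changes 0.31 and -0.34). Both calls were lost without either control library or candidate 42 ASO3 replicate 1, and without that ASO3 library the log2 fold changes were 0.23 for DNAJC7 and -0.20 for DNAJA2. DNAJB1, the inducible J-protein that works with HSPA1A, held 135, 129 and 143 TPM with candidate 42 ASO3, 127, 134 and 133 TPM with ASO5, 125, 126 and 130.2 TPM with candidate 240 ASO1 and 112, 108 and 118 TPM with candidate 240 ASO3 in A549, against 129, 129 and 84.2 TPM in controls. Its libraries overlapped the controls in all 4 comparisons. Without control replicate 5, those of candidate 240 ASO3 lay below the controls, and DNAJB1 did not pass (log2 fold change -0.20, limma adjusted p = 0.183). For the other ASOs the log2 fold changes of DNAJB1 were then -0.023 to 0.074. In NCI-H460 it ranged over 44.5 to 52.7 TPM across all 10 libraries, which was the smallest relative range of the 37 members after the chaperonin subunit CCT3: candidate 42 ASO3 had 44.5 and 52.7 TPM, ASO5 had 48.9 and 47.6 TPM, candidate 240 ASO1 had 45.9 and 47.7 TPM and ASO3 had 46.2 and 44.8 TPM, against 45.3 and 44.9 TPM in controls. DNAJB4 had the lowest log2 fold change of all members in NCI-H460, -0.74 with candidate 42 ASO3, which did not pass (7.47 ± 4.01 against 11.9 ± 0.248 TPM, SD, n = 2 each).

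Of the 2 BAG proteins, which release nucleotide from HSP70, BAG2 fell with candidate 42 ASO3 in NCI-H460 and BAG3 passed no test against control, except that it rose with that ASO under median-of-ratios scaling (0.44, limma adjusted p = 0.00689). BAG2 stood at 8.54 and 10.2 TPM with candidate 42 ASO3, 14.6 and 14.1 TPM with ASO5, 12.9 and 13.4 TPM with candidate 240 ASO1 and 13.2 and 11.6 TPM with candidate 240 ASO3, against 13.8 and 13.5 TPM in controls. It fell with candidate 42 ASO3 (log2 fold change -0.52 ± 0.12 SE, limma adjusted p = 0.00807), with both libraries below all other NCI-H460 libraries (adjusted p = 0.0505 without control replicate 1). In A549 BAG2 held 11, 12.2 and 12 TPM with that ASO, 10.9, 10.3 and 10.8 TPM with ASO5, 13, 10.9 and 10.5 TPM with candidate 240 ASO1 and 10.3, 10.7 and 10.9 TPM with candidate 240 ASO3, against 10.6, 11.7 and 9.41 TPM in controls. BAG3, the inducible one, held 51.5 and 56.3 TPM with candidate 42 ASO3, 53.4 and 55.2 TPM with ASO5, 51.1 and 48.9 TPM with candidate 240 ASO1 and 48.6 and 53 TPM with candidate 240 ASO3 in NCI-H460, against 47.5 and 43.2 TPM in controls. All its ASO libraries there lay above the controls. In A549 BAG3 held 88.7, 76.4 and 78.4 TPM with candidate 42 ASO3, 99.9, 94.2 and 93.6 TPM with ASO5, 85.7, 84.6 and 92.7 TPM with candidate 240 ASO1 and 68.5, 73.6 and 74.7 TPM with candidate 240 ASO3, against 92.7, 86.5 and 58.3 TPM in controls. Without control replicate 5 its log2 fold changes were -0.14, 0.097, -0.032 and -0.31 in that order, and none passed. All candidate 240 ASO3 libraries then lay below the controls (limma adjusted p = 0.0618).

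HSP90 itself and its cochaperones held 8 members, of which 4 rose with candidate 42 ASO3 in NCI-H460 and none fell. AHSA1, which speeds the ATP hydrolysis of HSP90, stood at 232 and 234 TPM with candidate 42 ASO3, 199 and 216 TPM with ASO5, 167 and 172 TPM with candidate 240 ASO1 and 199 and 219 TPM with candidate 240 ASO3, against 151 and 156 TPM in controls. All 8 ASO libraries lay above both controls. AHSA1 rose with candidate 42 ASO3 (log2 fold change 0.60 ± 0.088 SE, limma adjusted p = 0.00103) and with candidate 240 ASO3 (log2 fold change 0.45 ± 0.088 SE, limma adjusted p = 0.0245), and the ASO5 difference did not pass (log2 fold change 0.44 ± 0.088 SE, limma adjusted p = 0.0739). In A549 it held 349.9, 309 and 343 TPM with candidate 42 ASO3, 292, 294 and 294 TPM with ASO5, 299.9, 275 and 273 TPM with candidate 240 ASO1 and 371, 295 and 288 TPM with candidate 240 ASO3, against 296, 279.7 and 231 TPM in controls, and no difference passed.

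FKBP4, a prolyl isomerase that joins HSP90 to steroid receptors, rose with candidate 42 ASO3 in both lines. In A549 it stood at 171, 159 and 167 TPM with candidate 42 ASO3, 139, 132 and 132 TPM with ASO5, 139, 115 and 122 TPM with candidate 240 ASO1 and 133, 107 and 111 TPM with candidate 240 ASO3, against 134, 121 and 92 TPM in controls. The candidate 42 ASO3 libraries were the highest of the line (log2 fold change 0.53 ± 0.13 SE, limma adjusted p = 0.0189), and without control replicate 5 the log2 fold change was 0.38 (adjusted p = 0.073). In NCI-H460 FKBP4 held 76.1 and 77.3 TPM with that ASO, 73.4 and 72 TPM with ASO5, 56.6 and 60.5 TPM with candidate 240 ASO1 and 65.5 and 66.6 TPM with candidate 240 ASO3, against 53 and 57.2 TPM in controls. It rose with candidate 42 ASO3 there (log2 fold change 0.47 ± 0.084 SE, limma adjusted p = 0.00241), and this call held without each library of the comparison in turn.

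CDC37, which brings protein kinases to HSP90, held 262 and 219 TPM with candidate 42 ASO3 in NCI-H460, 209 and 209 TPM with ASO5, 184 and 188 TPM with candidate 240 ASO1 and 189 and 216 TPM with candidate 240 ASO3, against 169 and 159 TPM in controls. All ASO libraries were above the controls, and CDC37 rose with candidate 42 ASO3 (log2 fold change 0.55 ± 0.11 SE, limma adjusted p = 0.00421). In A549 CDC37 held 204, 161 and 173 TPM with candidate 42 ASO3, 217, 169 and 161 TPM with ASO5, 171, 137 and 152 TPM with candidate 240 ASO1 and 213, 148 and 158 TPM with candidate 240 ASO3, against 193, 145 and 149 TPM in controls. The replicate 3 library was the highest of each of the 5 groups, and the groups overlapped. STIP1, which links HSP70 to HSP90, also rose with candidate 42 ASO3 in NCI-H460 (221 ± 5.26 against 169 ± 3.13 TPM, SD, n = 2 each).

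Of the 2 HSP90 genes of the cytosol, the inducible HSP90AA1 rose with candidate 42 ASO3 in A549 (1015 ± 90.2 against 739 ± 147 TPM, SD, n = 3 each; log2 fold change 0.47 ± 0.13 SE, limma adjusted p = 0.0352), and without control replicate 5 its log2 fold change was 0.33 (adjusted p = 0.14). The constitutive HSP90AB1 held 952, 981 and 976 TPM with candidate 42 ASO3, 855, 935 and 897 TPM with ASO5, 1002, 950.1 and 958 TPM with candidate 240 ASO1 and 917, 785 and 868 TPM with candidate 240 ASO3, against 964, 975 and 801 TPM in controls. Its log2 fold changes there ran from -0.09 to 0.092, and all groups overlapped the controls. Without control replicate 5 the log2 fold changes ran from -0.18 to 0.00068, and none passed. In NCI-H460 HSP90AB1 held 1055 and 1174 TPM with candidate 42 ASO3, 1161 and 1153 TPM with ASO5, 1102 and 1038 TPM with candidate 240 ASO1 and 1221 and 1156 TPM with candidate 240 ASO3, against 1018 and 1045 TPM in controls, and no difference passed.

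The mitochondrial chaperones fell with candidate 42 ASO3 in NCI-H460, except for HSPE1. HSPA9 (mortalin), the HSP70 of the matrix that pulls in imported proteins, stood at 306 and 356 TPM with candidate 42 ASO3, 486 and 460.5 TPM with ASO5, 477 and 483 TPM with candidate 240 ASO1 and 456 and 429 TPM with candidate 240 ASO3, against 524 and 519 TPM in controls. All 8 ASO libraries lay below both controls, and HSPA9 fell with candidate 42 ASO3 (log2 fold change -0.66 ± 0.10 SE, limma adjusted p = 0.00118), also under the other scaling and without each library in turn. In A549 it held 336, 370.3 and 368 TPM with candidate 42 ASO3, 316, 321 and 323 TPM with ASO5, 329.8, 317 and 313 TPM with candidate 240 ASO1 and 258, 276 and 296 TPM with candidate 240 ASO3, against 262, 324 and 331 TPM in controls, where the values with candidate 42 ASO3 lay above the controls and no difference passed.

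HSPD1 (HSP60) and HSPE1 (HSP10) form the folding chamber of the matrix and share a promoter. In NCI-H460 HSPD1 stood at 787 and 879 TPM with candidate 42 ASO3, against 1115 and 1154 TPM in controls, and fell (log2 fold change -0.45 ± 0.11 SE, limma adjusted p = 0.0114). HSPE1 stood at 1144 and 1235 TPM, against 1029.6 and 1043 TPM in controls, with both ASO libraries above the controls (log2 fold change 0.20 ± 0.11 SE, limma adjusted p = 0.178). The HSPD1 to HSPE1 ratio was therefore 0.688 and 0.711 with candidate 42 ASO3, against 1.08 and 1.11 in controls. Under median-of-ratios scaling the fall of HSPD1 did not pass (-0.25, limma adjusted p = 0.0833) and HSPE1 rose (0.39, limma adjusted p = 0.0201), while HSPA9 and BAG2 fell as before. The HSPD1 call was also lost without control replicate 1 or 2 (adjusted p = 0.0527 and 0.0779).

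**Figure D4:**
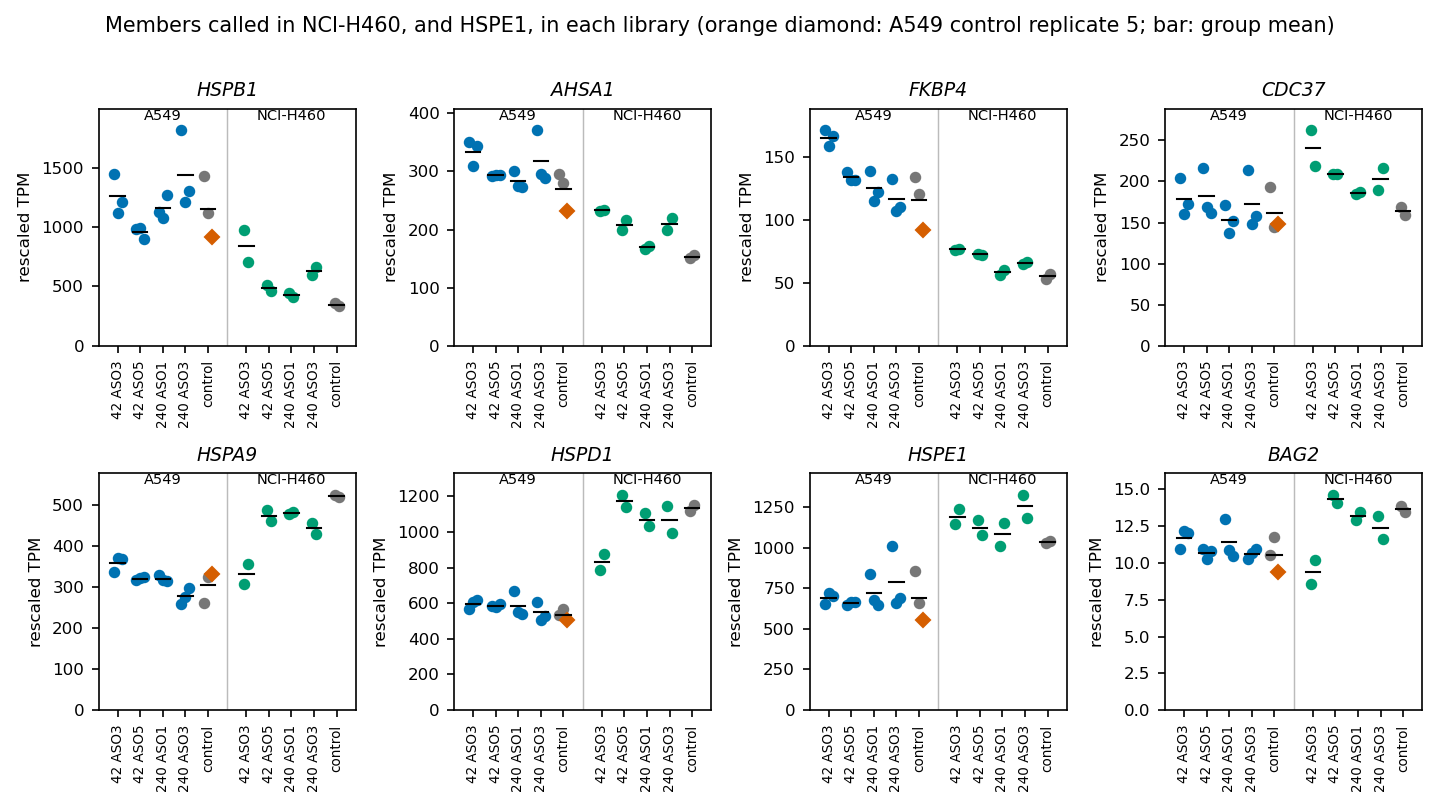
Rescaled TPM (y axis, linear from 0) of 8 members in every library of the 4 ASO groups and the control of A549 (left) and NCI-H460 (right). Points are libraries, bars are group means, and the orange diamond is A549 control replicate 5; in NCI-H460 candidate 42 ASO3 had the highest group means for HSPB1, AHSA1, FKBP4 and CDC37 and the lowest for HSPA9, HSPD1 and BAG2.

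The chaperonin TRiC/CCT folds actin, tubulin and other proteins, and its ring is built of one copy of each of 8 subunits. In A549 all 8 subunit genes had positive fold changes with candidate 42 ASO3, of 0.12 to 0.44 on the log2 scale. Without control replicate 5 the values were 0.024 to 0.38. TCP1 alone rose (337 ± 10.9 against 249 ± 28 TPM, SD, n = 3 each, with a log2 fold change of 0.44 ± 0.09 SE, limma adjusted p = 0.00707). TCP1 was also the member that passed without each library in turn, with a log2 fold change of 0.38 (adjusted p = 0.034) without control replicate 5. In NCI-H460, with the same ASO, CCT7 and CCT6A rose (log2 fold changes 0.47 and 0.38), while TCP1 and CCT5 had values of -0.15 and -0.20 that did not pass. The CCT7 call was lost without control replicate 2 (limma adjusted p = 0.0597) and that of CCT6A without control replicate 1 (limma adjusted p = 0.0798). The summed CCT signal stayed at 0.233% to 0.297% of each library in A549 and 0.244% to 0.294% in NCI-H460. CCT6A stood at 236 ± 19.5 TPM in A549 controls (SD, n = 3) and was the lowest subunit in NCI-H460 controls, at 85.6 ± 5.2 TPM (SD, n = 2).

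**Figure D5:**
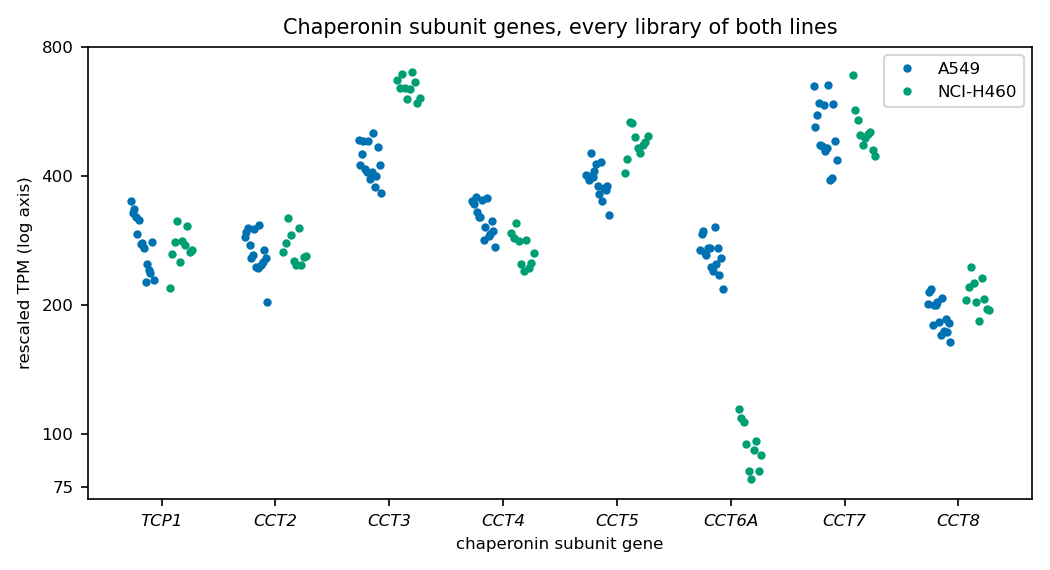
Rescaled TPM (y axis, log scale) of the 8 chaperonin subunit genes (x axis) in all 15 A549 libraries and all 10 NCI-H460 libraries, 1 point per library. CCT6A is the subunit that stands apart between the lines, with control means of 236 TPM in A549 and 85.6 TPM in NCI-H460.

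HSPB1 (HSP27), a small heat shock protein that holds unfolded proteins without ATP, had the largest called fold change of any member against control. In NCI-H460 it stood at 977 and 709 TPM with candidate 42 ASO3, 509 and 462 TPM with ASO5, 442 and 409 TPM with candidate 240 ASO1 and 595 and 666 TPM with candidate 240 ASO3, against 359.9 and 334 TPM in controls. Every ASO library lay above both controls. HSPB1 rose with candidate 42 ASO3 (log2 fold change 1.26 ± 0.15 SE, limma adjusted p = 0.000452), at 1.03 to 1.49 without each library in turn, and with candidate 240 ASO3 (log2 fold change 0.86 ± 0.15 SE, limma adjusted p = 0.0149). With ASO5 and candidate 240 ASO1 it did not pass (log2 fold change 0.48 ± 0.15 SE, limma adjusted p = 0.184, and log2 fold change 0.29 ± 0.15 SE, limma adjusted p = 0.927). In A549 HSPB1 held 1445, 1119 and 1210.5 TPM with candidate 42 ASO3, 984, 988 and 903 TPM with ASO5, 1129.8, 1073 and 1268 TPM with candidate 240 ASO1 and 1815, 1207 and 1303 TPM with candidate 240 ASO3, against 1432, 1117 and 918 TPM in controls. All A549 groups overlapped the controls, and no difference passed. Without control replicate 5 the A549 log2 fold changes were -0.016, -0.40, -0.13 and 0.17 in that order, and none passed.

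The heat shock factors themselves were not called in any comparison with control. HSF1, the master regulator, had its largest values with candidate 42 ASO3 and ASO5 in NCI-H460 (log2 fold changes 0.33 and 0.32), and passed there with ASO3 under median-of-ratios scaling. HSF2 was the lowest member in both lines, at 6.24 ± 1.56 TPM in A549 controls (SD, n = 3) and 6.64 ± 0.114 TPM in NCI-H460 controls (SD, n = 2). SERPINH1 (HSP47), a collagen chaperone of the endoplasmic reticulum, stayed within -0.12 to 0.22 on the log2 scale over the 8 comparisons.

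The second ASO of each candidate was set against the first, which uses no control library. In A549, candidate 42 ASO5 against ASO3 called 2 of 37 members (10.7% of all genes tested, 6.02% higher and 4.63% lower): SERPINH1 was higher with ASO5 (120.3 ± 9.23 against 94.6 ± 6.1 TPM) and HSPA14 was lower (38.3 ± 0.693 against 48.8 ± 3.53 TPM, SD, n = 3 each). With the replicate block, which the libraries support here, 4 members passed. The share of all genes under that block is not given here, so this count is not read as a result about the members. Both calls were lost without 5 of the 6 libraries in turn, namely candidate 42 ASO3 replicates 4 and 5 and ASO5 replicates 3, 4 and 5. Candidate 240 ASO3 against ASO1 called none of 37 in A549 (16.7% of all genes), with 1 at an unadjusted p under 0.05, and none in NCI-H460 (2.92%), with 7. These fits did not use the replicate block. In A549 the libraries of this comparison count as paired, and its block result is not given here.

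In NCI-H460, candidate 42 ASO5 against ASO3 called 7 of 37 members (33.3% of all genes tested, 27.7% higher and 5.62% lower), 6 higher and 1 lower. HSPB1 was lower with ASO5 (-0.78 on the log2 scale), at 486 ± 33 TPM against 843 ± 189.6 TPM with ASO3 (SD, n = 2 each). HSPA9, HSPD1, BAG2, DNAJA2, CCT5 and CHORDC1, a cochaperone of HSP90, were higher with ASO5, by 0.34 to 1.04. The count was 14 without candidate 42 ASO3 replicate 2 and 4 without ASO5 replicate 2. AHSA1, FKBP4 and CDC37 did not pass between the 2 ASOs (log2 differences -0.17, -0.077 and -0.20).

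The response to candidate 42 ASO3 was tested for a difference between the lines, as the log2 fold change in A549 minus that in NCI-H460. The test called 7 of 37 members (18.9%, against 19.7% of all genes tested, 15.5% higher and 4.22% lower). HSPA9, DNAJB6, BAG2, HSPD1, TCP1 and DNAJA2 had the more positive response in A549, by 0.47 to 0.89, and HSPB1 the less positive one (-1.12). The count was 1 without candidate 42 ASO3 replicate 1 of NCI-H460, 4 without control replicate 2 of NCI-H460 and 12 without A549 control replicate 4, and it was 7 without A549 control replicate 5. The members behind this last count were not the same 7, since the DNAJA2 call was lost without A549 control replicate 5. For candidate 42 ASO5, candidate 240 ASO1 and candidate 240 ASO3 no member differed between lines (limma, 0.0339%, 0% and 1.21% of all genes), with 1, 0 and 1 at an unadjusted p under 0.05.

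The control libraries of the lines differed in most members, and the line cannot be told apart from other differences between the 2 experiments. A549 against NCI-H460 controls called 25 of 37 members (67.6%, against 54.9% of all genes tested), 18 higher and 7 lower in A549, where 36.4% of all genes were higher and 18.4% lower. Of the 16 inducible members 12 were higher in A549, among them HSPA1A (log2 difference 1.95), HSPB1 (1.71) and DNAJA1 (1.56), and HSPD1 (-1.08) and HSPE1 (-0.61) were lower. HSPB1 was the member with the highest control mean in A549 (1156 ± 259 TPM), and HSPD1 in NCI-H460 (1134 ± 27.4 TPM, SD, n = 3 and 2). Without A549 control replicate 5 the count was 22. The A549 control means of HSPA1A, HSPB1, DNAJA1, HSPD1 and HSPE1 were then 399, 1275, 215, 550 and 757 TPM. With all 3 control libraries they were 295, 1156, 186, 535 and 689 TPM. The log2 differences of these members without that library are not given here.

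Of 39 other genes of the chaperone network, 37 entered the tests of A549 and 36 those of NCI-H460. HSPA6, a strictly stress-induced HSP70, lay under the filter in both lines. Candidate 42 ASO3 in A549 called 5 (13.5%, against 10.1% of all genes tested), with ST13, an HSP70 cochaperone, and HSPA1L higher, and TRAP1, the mitochondrial HSP90, with CLPB and DNAJB2 lower. TRAP1 fell to 97 TPM against 179 TPM in controls (log2 fold change -0.88). Without control replicate 5, ST13, TRAP1 (-0.95) and CLPB passed, and HSPA1L and DNAJB2 did not. With candidate 42 ASO5 in A549 1 was called (2.7%, against 3.82%), the mitochondrial J-protein DNAJA3 (-0.77, and -0.73 without control replicate 5). Candidate 240 ASO3 called 4 (10.8%, against 13.8%), and 3 without control replicate 5, where 10.4% of all genes were called. The calls were led by the small heat shock protein CRYAB (1.57, and 1.62 without control replicate 5), which stood at 2.57 TPM against 0.476 TPM in controls. In NCI-H460 candidate 42 ASO3 called 15 (41.7%, against 46% of all genes tested), 9 higher and 6 lower, led by HSPA4L (-1.40), the mitochondrial unfoldase CLPX (-0.82), FKBP5 (-0.78), HSPBP1 (0.65) and BAG6 (0.56). Candidate 240 ASO3 called SUGT1 there (0.42; 2.78%, against 5.66%), and candidate 42 ASO5 and candidate 240 ASO1 called none.

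In the authors' deposited tables, 6 members had a q-value under 0.05 for candidate 42 ASO3 in A549, all higher (16.2%, where 11.3% of all genes in that table had one and 4.74% were higher), of which HSPA14, DNAJB6, FKBP4 and TCP1 were also called here and HSPA4 and CHORDC1 were not. For candidate 42 ASO5 in A549 the authors' deposited table had 1, HSPA4, which was higher (5.56% of all genes, 2.58% higher), and for candidate 240 ASO1 and ASO3 none (0% and 11.6% of all genes). For candidate 42 ASO3 in NCI-H460 the authors' deposited table had 32 of 37, with 24 higher and 8 lower, where 49.3% of all genes had a q-value under 0.05, 21.7% higher and 27.6% lower. For candidate 240 ASO3 in NCI-H460 the authors' deposited table had 5, all higher (6.91% of all genes, 3.94% higher): HSPA1A, HSPA8, HSP90AB1, AHSA1 and HSPB1. For candidate 42 ASO5 and candidate 240 ASO1 in NCI-H460 the authors' deposited tables had no member and no gene (0%).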

How the data were processed

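RNA sequencing of 25 libraries was analysed. Per the submitters' processing notes, kallisto and sleuth 0.30 were used with build hg38; the sources used here name neither an annotation release nor a strand setting. The authors deposited 1 table of signal by gene name, in TPM rescaled between libraries, with no record of read number, so depth is unknown and no counting interval is given. For each ASO against control the authors deposited their own log2 changes and q-values, per the file headers.

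The tests used limma 3.58.1 in R 4.3.3 on log2(TPM + 0.5), which understates changes of low genes. A gene entered if its mean over the line was 1 TPM or more. One model of all 5 groups per line was fitted (lmFit, contrasts.fit, eBayes with trend), two-sided, with Benjamini-Hochberg adjustment over all genes and a threshold of 0.05; differences between lines came from a model of all 25 libraries. The tests were checked on simulated data. Alternatives were pseudocount 1, no filter, median-of-ratios scaling, the replicate number as a block, the compared groups alone, HSPA1A and HSPA1B summed, and leaving out each library.

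Same-numbered libraries deviated together (correlation of deviations from group means over 0.1 in every pair) in A549 for candidate 240 ASO1 and ASO3 against control and for both comparisons between ASOs, so these count as paired. Candidate 42 ASO3 against control missed this in replicate 5 (0.09) and ASO5 in replicate 4 (0.02). The cut of 0.1 is a choice, and these comparisons share their control libraries with the paired ones. Block results are therefore given for comparisons of both kinds, though not for every one. NCI-H460 has 2 pairs only.

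The members, classes and lists were chosen with earlier results of these data known. Values of every library are given for members called against control with a log2 fold change over 0.5 in size, and for HSPA1A, HSPA1B, DNAJB1, HSPH1, BAG3, HSPA8 and HSP90AB1; others are given by role, with those of largest fold change named, and of 39 other network genes the 5 largest called. HSPD1, HSPE1, HSPA14, TCP1, HSP90AA1, DNAJB6, STIP1, SERPINH1 and HSF2 were described in more detail after their values were seen. Motifs were searched in RefSeq promoter windows with Python 3.11.15, and exons and gene positions came from GENCODE 29 (hg38).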

Additional observations from a re-analysis of the deposited data

Results flagged for a closer look

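For candidate 42 ASO3, 7 members had responses that differed between the lines by the test of the difference itself, in a limma model of all 25 libraries. Of all genes tested 19.7% passed the same test, so the count of members was near the share of all genes. The values are the log2 fold change in A549 minus that in NCI-H460. HSPA9 differed by 0.89 (adjusted p = 0.00102), HSPD1 by 0.60 (adjusted p = 0.0136) and BAG2 by 0.67 (adjusted p = 0.0121), each with a fall in NCI-H460 and a value in A549 that did not pass. DNAJA2 differed by 0.47 (adjusted p = 0.0399). DNAJB6 differed by 0.68 (adjusted p = 0.026) and TCP1 by 0.59 (adjusted p = 0.011), both with a rise in A549 and a value in NCI-H460 that did not pass. HSPB1 differed by -1.12 (adjusted p = 0.00966), with a rise in NCI-H460. The median difference over all genes tested was 0.15. HSPA9 passed without each of the 10 libraries in turn, and HSPB1 passed without 9 of them, the exception being NCI-H460 candidate 42 ASO3 replicate 1 (adjusted p = 0.099). The DNAJA2 call was lost without 7 of the 10 libraries, A549 control replicate 5 among them. That of DNAJB6 was lost without 6, that of HSPD1 without 2, and those of BAG2 and TCP1 without 1 each. Under median-of-ratios scaling 3 members passed, HSPA9 and HSPB1 among them, and BAG2, DNAJA2, DNAJB6, HSPD1 and TCP1 did not. The share of all genes under that scaling is not given here.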

How the results depend on the processing

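The file holds no read counts, so depth sets no stated limit, and with 2 libraries per group in NCI-H460 a missing call says little. Leaving out each library in turn gave these lowest and highest counts of members called, with counts of all genes in brackets. In A549 they were 1 to 7 (832 to 1271) for candidate 42 ASO3, 0 to 2 (207 to 449) for candidate 42 ASO5, 0 to 0 (0 to 0) for candidate 240 ASO1 and 0 to 2 (1371 to 2199) for candidate 240 ASO3, and 0 to 2 members for ASO5 against ASO3 of candidate 42. In NCI-H460 they were 7 to 18 (3698 to 7475) for candidate 42 ASO3, 0 to 0 (0 to 0, from 70) for ASO5, 0 to 0 (0 to 2) for candidate 240 ASO1 and 0 to 2 (76 to 392) for candidate 240 ASO3, and 4 to 14 members for ASO5 against ASO3 of candidate 42. The difference between lines for candidate 42 ASO3 gave 1 to 12 members, and the control levels of the lines 22 to 24.

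With the replicate number as a block, A549 gave 15 members and 3112 genes for candidate 42 ASO3, 3 and 1533 for ASO5, 2 and 3696 for candidate 240 ASO3, and 4 members for ASO5 against ASO3; correlations between same-numbered libraries were 0.09 to 0.39 for candidate 42 ASO3 and 0.02 to 0.32 for ASO5, so there the number is not taken as a pairing. In NCI-H460 the block kept every count within 1.5 times. With the compared groups alone, A549 gave 0 members and 762 genes for candidate 42 ASO3, 119 genes for ASO5, 665 genes for candidate 240 ASO3 and 4 members for ASO5 against ASO3; NCI-H460 gave 5 members and 4088 genes for candidate 42 ASO3, 4 members for candidate 240 ASO3 and 2 members for ASO5 against ASO3. Median-of-ratios scaling gave 22 members for candidate 42 ASO3 in NCI-H460, 11 and 1 for ASO5 against ASO3 in NCI-H460 and A549, and 3 for the difference between lines. Without a filter on low values, ASO5 against ASO3 in A549 gave 0 members, candidate 240 ASO3 in NCI-H460 gave 1 member and 373 genes, and candidate 240 ASO1 gave 5 genes in A549 and 44 in NCI-H460, where a pseudocount of 1 gave 1. Summing HSPA1A and HSPA1B before the test left both without a call in all 8 comparisons. The causes of these shifts were not tested. Where a count of members stands here without a count of genes, it is not read as a result about the members.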
